A study of Mus musculus with 8 samples.

Results

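The enzymes described here turn arachidonic acid, a fatty acid held in membrane phospholipids, into leukotrienes and prostanoids. They were taken by gene symbol, and all 10 were found among the 22520 genes of the RNA sequencing table: Alox5, Alox5ap, Lta4h and Ltc4s of the leukotriene arm, and Ptgs1, Ptgs2, Ptges, Hpgds, Ptgis and Tbxas1 of the prostanoid arm. The libraries were made from microvascular cells of lung, heart and liver of C57BL/6 mice at postnatal day 14. The comparison was of 4 WT with 4 LRP1 KO libraries, and all of these mice carried the floxed alleles (LRP1 f/f). The knockout mice also carried Cdh5-CreER+/-, a Cre recombinase that acts after tamoxifen in cells with an active Cdh5 promoter, while their WT littermates were Cdh5-CreER-/-, so that CreER itself was present in the knockout group alone. Selection was by magnetic beads carrying an antibody to PECAM-1, a surface protein of endothelial cells (ECs) that several blood cells also carry. The labels name a mix of the 3 organs for every library, whereas the study's text speaks of liver ECs and of heart and lung ECs, and the share of each organ in a library is not given. No label says whether a library came from 1 animal or from a pool, so p-values measure the spread between these libraries.

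Leukotriene synthesis begins when a phospholipase frees arachidonic acid and 5-lipoxygenase (Alox5), helped by its activating protein in the nuclear membrane (Alox5ap, also called FLAP), converts it to leukotriene A4. Leukotriene A4 hydrolase (Lta4h) then makes the neutrophil attractant leukotriene B4, and leukotriene C4 synthase (Ltc4s) makes the first of the cysteinyl leukotrienes, which open venules and contract smooth muscle. Prostanoid synthesis begins with the cyclooxygenases, the constitutive Ptgs1 and the inducible Ptgs2, whose product is isomerised to prostaglandin E2 by Ptges, to prostaglandin D2 by the hematopoietic synthase Hpgds, to prostacyclin by Ptgis or to thromboxane A2 by Tbxas1. Endothelial cells are known for prostacyclin, which relaxes vessels and holds back platelets. Alox5, Alox5ap, Ltc4s, Hpgds and Tbxas1 are best known from myeloid cells, mast cells and platelets.

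The sequences upstream of 4 members are shown because 3 of them, Alox5, Hpgds and Tbxas1, had LRP1 KO values above every WT value while the fourth, Ptgs1, was abundant in both groups. Each is the 250 bases before the RefSeq start (GRCm38.p6), written 5′ to 3′ on the strand of the gene. The window of Alox5 is at chr6:116461179-116461428 on the minus strand, Hpgds at chr6:65144731-65144980 on the minus strand, in large part inside its GENCODE gene, Tbxas1 at chr6:38918736-38918985 on the plus strand, inside the longer GENCODE gene, and Ptgs1 at chr2:36230176-36230425 on the plus strand. Capitals mark GAGGAA, which holds the GGAA core read by transcription factors of the ETS family, and TATAAA, the usual letters of a TATA box, both searched on either strand. A match to the other strand is read as TTCCTC. In Tbxas1 it adjoins 2 overlapping TATAAA matches, 1 on each strand.
Alox5: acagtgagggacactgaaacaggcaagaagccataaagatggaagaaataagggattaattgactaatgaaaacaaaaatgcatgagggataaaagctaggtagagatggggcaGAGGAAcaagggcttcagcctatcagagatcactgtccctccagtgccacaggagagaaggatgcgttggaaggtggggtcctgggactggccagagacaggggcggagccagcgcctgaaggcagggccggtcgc
Hpgds: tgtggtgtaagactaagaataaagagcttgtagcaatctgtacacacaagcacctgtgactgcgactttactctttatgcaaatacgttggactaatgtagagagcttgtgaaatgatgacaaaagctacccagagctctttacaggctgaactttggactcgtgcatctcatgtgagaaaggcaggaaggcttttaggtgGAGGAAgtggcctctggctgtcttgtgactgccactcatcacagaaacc
Tbxas1: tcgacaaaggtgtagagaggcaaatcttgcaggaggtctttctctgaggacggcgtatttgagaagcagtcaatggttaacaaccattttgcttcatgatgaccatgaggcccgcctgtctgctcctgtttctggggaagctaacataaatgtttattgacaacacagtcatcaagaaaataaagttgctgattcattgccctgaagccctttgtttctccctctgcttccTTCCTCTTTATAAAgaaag
Ptgs1: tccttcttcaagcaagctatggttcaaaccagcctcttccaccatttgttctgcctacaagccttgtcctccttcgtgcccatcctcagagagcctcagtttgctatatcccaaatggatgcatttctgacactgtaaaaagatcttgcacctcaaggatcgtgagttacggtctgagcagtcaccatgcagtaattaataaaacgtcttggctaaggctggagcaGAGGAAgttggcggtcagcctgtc
RefSeq windows were found for 8 of the 10 members, Alox5ap and Ptgis being the others. GAGGAA was present in 7 of the 8 windows, Ltc4s being the exception, and in 23.3% of 32851 promoter windows of the same length. Counted back from the start, the match begins at -136 in Alox5, -49 in Hpgds, -19 in Tbxas1 and -24 in Ptgs1. TATAAA was present in Tbxas1 alone of the 8, against 12.4% of all windows. The letters were chosen after these sequences had been seen and occurred upstream of members of either pattern, so the matches are a description only.

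Expression was measured as FPKM, the sequenced fragments of a gene divided by transcript length and by library total, a unit inferred from the values. The values had been quantile normalized, so that the columns summed to 503571 to 504112 and the depth of each library is unknown. Genes at 1 FPKM or more in at least 4 of the 8 libraries were tested with limma on log2(FPKM + 1), and Benjamini-Hochberg adjusted p-values over 11389 genes had to be under 0.05. Lrp1 measured 112.7, 140.4, 103.2 and 124.2 FPKM across WT libraries, against 3.45, 5.20, 2.79 and 7.72 across the knockouts, which is 3.99% of the WT mean (log2 fold change -4.45, limma adjusted p = 8.89e-05). In a principal component analysis whose leading axis held 60.8% of the variance, LRP1 KO 4 lay at 0.102, between the WT libraries (-24.1 to -12.9) and the other LRP1 KO libraries (17.2 to 27.3). LRP1 KO 4 was also the knockout library whose summed endothelial markers remained at the WT level, as described further on. Fibroblast and mesothelial marker sums were far above the endothelial ones in every library, while Lrp1 was low in all 4 knockout libraries. Which cells had lost Lrp1 was not tested.

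The 10 enzymes spanned a wide range of levels, and the groups shared their upper end. Ptgis and Ptgs1, which act in sequence to make prostacyclin, stood at 181 ± 31.5 and 148.8 ± 14.5 FPKM in WT (SD, n = 4), above 98.2% and 97.8% of all genes. Ptgis exceeded Ptgs1 in 8 of 8 libraries, by 1.08 to 1.40 times, and Ptgs1 exceeded Lta4h in all 8, by 2.74 to 3.90 times. Lta4h exceeded Ptgs2 in all 8 libraries and Ptgs2 exceeded Ptges in 7 of 8. The other 5 members, all of which are best known from blood cells, averaged under 1 FPKM in WT. Tbxas1 and Ltc4s did not differ beyond their spread there, at 0.239 ± 0.0316 and 0.226 ± 0.110 FPKM, and neither did Hpgds and Alox5 at 0.0931 ± 0.0287 and 0.0553 ± 0.0243. FPKM is corrected for length, so these levels can be compared between genes if the inferred unit holds.

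**Figure D1:**
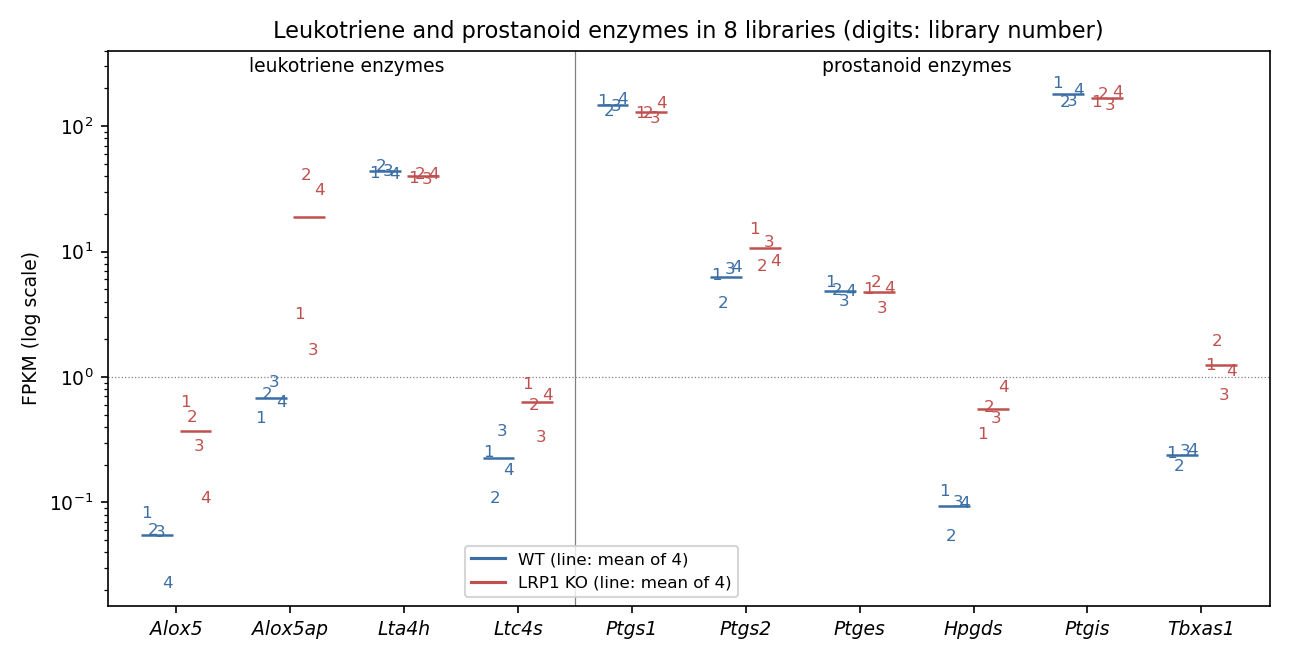
FPKM on a log axis of the 10 enzymes in 4 WT (blue) and 4 LRP1 KO (red) libraries, where each digit is the number of a library, each line the mean of 4 and the dotted line 1 FPKM. Alox5, Alox5ap, Ptgs2, Hpgds and Tbxas1 have every red digit above every blue one, and Alox5ap has red digits from 1.62 to 40.4.

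None of the 6 members tested passed at an adjusted p under 0.05, whereas 13.6% of all tested genes did, 6.27% being higher in LRP1 KO and 7.31% lower. At an unadjusted p under 0.05 the count was 2 of 6, Alox5ap and Ptgs2, against 3838 of 11389 genes. The other 4 members, Alox5, Ltc4s, Hpgds and Tbxas1, were below the expression filter and were examined one by one by exact permutation (two-sided, all 70 ways to choose 4 of 8 libraries), in which the smallest possible p is 0.0286. The groups did not overlap, with LRP1 KO higher, in 3 of these 4 members, against 5.38% of the 6637 detected genes below the filter. Of all tested genes 8.84% had such groups. Ptgs2 and Alox5ap did among the 6 tested members, but nothing is read from that count, since Alox5ap reached 1 FPKM in the 4 knockout libraries alone and was tested only through them. No member had every LRP1 KO value below every WT value. In all 4 knockout libraries macrophage markers were also higher, with sums of 225.2 to 546.5 FPKM against 56.3 to 97.0 in WT, and their part in the values of Alox5ap, Alox5, Ltc4s, Hpgds and Tbxas1 was not tested. In such bulk libraries fewer or more cells of a type and less or more RNA per cell cannot be told apart.

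Alox5ap, which presents arachidonic acid to 5-lipoxygenase, had the largest ratio of group means among the members, and the widest spread among the knockout libraries. It measured 0.469, 0.720, 0.907 and 0.630 FPKM across WT libraries 1 to 4, against 3.16, 40.4, 1.62 and 30.6 across knockouts 1 to 4. The groups did not overlap, and the knockout libraries were unequal, with 2 and 4 far above 1 and 3. The highest knockout value was 24.9 times the lowest. The log2 fold change was 2.71 (SE 0.81, 95% interval 0.88 to 4.54) with a limma adjusted p of 0.0556. All WT values were under 1 FPKM, so the gene passed the filter only through the group in which it was high, and its p is conditioned on that. With no filter the adjusted p was 0.105. Without LRP1 KO 3 the estimate was 3.39 and the adjusted p 0.0309, without LRP1 KO 2 they were 2.07 and 0.117, and with 0.1 in place of 1 added to the FPKM they were 3.58 and 0.0366, while the adjusted p ranged from 0.0309 to 0.127 over all alternatives. The gene lies at chr5:149264767-149288153 on the plus strand (GRCm38), and 13.3% of its exon bases are shared with the antisense gene Gm19719.

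The other leukotriene enzymes were either under 1 FPKM or did not pass the test. Alox5, the lipoxygenase itself, measured 0.0811, 0.0599, 0.0576 and 0.0225 FPKM across WT libraries, against 0.632, 0.473, 0.279 and 0.107 across the knockouts. Every knockout value was above every WT value, though all 8 were under 1 FPKM (exact permutation p = 0.0286). Its order among the knockout libraries was not that of Alox5ap: LRP1 KO 4, with the second highest Alox5ap, had the lowest Alox5, and the ratio of Alox5ap to Alox5 ran from 5.0 to 284.9 among the knockout libraries and from 5.78 to 28.0 among the WT libraries.

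Lta4h, the abundant enzyme of the arm, measured 41.8, 47.5, 43.5 and 41.5 FPKM across WT libraries, against 38.3, 41.6, 37.9 and 41.4 across the knockouts. The groups overlapped by a narrow margin, with 3 of 4 knockout values below all WT values. The log2 fold change was -0.13 (95% interval -0.26 to 0.01, limma adjusted p = 0.177). Ltc4s measured 0.250, 0.108, 0.365 and 0.180 FPKM across WT libraries, against 0.877, 0.587, 0.328 and 0.717 across the knockouts, where LRP1 KO 3 fell within the WT range (exact permutation p = 0.0571). Without WT 3 or without LRP1 KO 3 its groups no longer overlapped. Of the Ltc4s exon bases 26.4% are shared with the antisense gene Gm26542, and strand-specific counting is not stated for these data. The ratio of the hydrolase to the synthase, Lta4h to Ltc4s, was 119.1 to 440.9 in WT and 43.7 to 115.3 in LRP1 KO.

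The cyclooxygenases stood at unlike levels and had estimates of opposite sign, neither past the threshold. Ptgs1, the constitutive form, measured 158.2, 130.0, 144.8 and 162.0 FPKM across WT libraries, against 125.4, 127.3, 115.0 and 150.6 across the knockouts. The groups overlapped through LRP1 KO 4 alone, the other 3 knockout values being below all WT values. The log2 fold change was -0.20 (95% interval -0.41 to 0.02) with a limma adjusted p of 0.174, and without LRP1 KO 4 it was -0.27 with an adjusted p of 0.0409 (0.0387 to 0.385 over all alternatives).

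Ptgs2, the form induced by cytokines and growth factors, measured 6.49, 3.85, 7.17 and 7.49 FPKM across WT libraries, against 14.9, 7.61, 11.8 and 8.36 across the knockouts. The groups did not overlap, but the lowest knockout value was only 1.02 times the highest WT value. The means were 6.25 ± 1.65 and 10.7 ± 3.38 FPKM (SD, n = 4), a ratio of 1.71. The log2 fold change of 0.68 (95% interval 0.16 to 1.19) had a limma adjusted p of 0.0761, which became 0.0471 without LRP1 KO 4, with an estimate of 0.77 (0.0471 to 0.182 over all alternatives). The ratio of Ptgs1 to Ptgs2 was 20.2 to 33.8 in WT and 8.39 to 18 in LRP1 KO. That ratio was 1 of 13 between members, most of them chosen after the values were seen, and none was tested.

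Among the 4 member synthases that take the cyclooxygenase product, the 2 above 1 FPKM in WT had overlapping groups. Ptgis, which makes prostacyclin, measured 219.6, 154.1, 156.7 and 193.8 FPKM across WT libraries, against 155.7, 178.0, 147.6 and 185.9 across the knockouts. The log2 fold change was -0.11 (95% interval -0.39 to 0.17, limma adjusted p = 0.572). Ptges, which makes prostaglandin E2, measured 5.64, 4.88, 3.98 and 4.82 FPKM across WT libraries, against 4.96, 5.63, 3.5 and 5.08 across the knockouts. Its means were 4.83 ± 0.679 and 4.79 ± 0.908 FPKM, and the interval of its log2 fold change (-0.31 to 0.28) did not reach 2-fold in either direction.

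Hpgds and Tbxas1, the synthases of prostaglandin D2 and thromboxane A2 in blood cells, were low in WT and higher in every LRP1 KO library. Hpgds measured 0.121, 0.0531, 0.0996 and 0.0982 FPKM across WT libraries, against 0.348, 0.573, 0.465 and 0.831 across the knockouts. Tbxas1 measured 0.247, 0.193, 0.256 and 0.261 FPKM across WT libraries, against 1.23, 1.91, 0.710 and 1.11 across the knockouts, which carried it past 1 FPKM in 3 libraries. The lowest knockout value was 2.86 times the highest WT value for Hpgds and 2.73 times for Tbxas1 (exact permutation p = 0.0286 for each). With no filter on low values both passed limma, as did 6.45% of 18026 genes, Hpgds with a log2 fold change of 0.50 (adjusted p = 0.0227) and Tbxas1 with 0.83 (adjusted p = 0.0228). Such estimates on log2(FPKM + 1) understate the change of genes this low. Ptgds, the other prostaglandin D2 synthase and no member, was at 1.05 to 2.73 FPKM in WT and 0.559 to 0.974 in LRP1 KO, with the groups apart (log2 fold change -0.58, limma adjusted p = 0.0555). Ptgds is named after its values were seen, was tested only through the WT libraries, and had an adjusted p of 0.0373 without LRP1 KO 4, 0.0416 without WT 4 and 0.0373 to 0.127 over all alternatives. Its estimate ran from -0.99 to -0.41 over these, the former with a pseudocount of 0.1 (limma adjusted p = 0.0466). The ratio of the prostacyclin to the thromboxane synthase was 611 to 889.3 in WT and 93.2 to 207.9 in LRP1 KO, while Ptgis itself overlapped between the groups.

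Of 64 other genes of the pathway in 6 lists, 60 were in the table and 38 were tested. Of the 38, 6 passed, 3 higher and 3 lower in LRP1 KO, which is 15.8% against 13.6% of all tested genes, and 3 of the 6 estimates reached 2-fold. Of the 6, Ggt5 met the expression filter through its WT libraries, the group in which it was high. The median log2 fold change was -0.06 over the 38 and -0.01 over all tested genes. The count was 14 without LRP1 KO 4, where 26.5% of all tested genes passed, and 3 without WT 2 or without LRP1 KO 1, 2 or 3, where 4.5% to 4.97% of all tested genes passed.

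Upstream of the enzymes, 1 of 7 tested genes of arachidonate release passed, and it does not free arachidonic acid: Pla2g7, which inactivates platelet-activating factor, was at 1.02 to 1.51 FPKM in WT and 4.18 to 11.6 in LRP1 KO (log2 fold change 2.0, limma adjusted p = 0.00205). Pla2g4a, the cytosolic phospholipase that supplies both arms, was at 37.1 to 40.8 FPKM in WT and 26.5 to 38.6 in LRP1 KO (-0.36, adjusted p = 0.0556). It is named after its values were seen, and its adjusted p was 0.00141 without LRP1 KO 4 and up to 0.149 under the other alternatives. Among 7 other oxygenases and partners Ephx2, the soluble hydrolase of arachidonate epoxides, was higher at 14.1 to 23.8 against 12.5 to 14.4 FPKM (0.52, adjusted p = 0.0368), though LRP1 KO 4 fell within the WT range. The other lipoxygenases, 6 in the list, were at most 0.445 FPKM in any library.

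Among the 10 other synthases tested, 2 enzymes related to Ltc4s were lower. With 1 library left out the list held 1 to 4 lower calls, 4 of them without LRP1 KO 4, where 1 gene also passed as higher. Mgst2, which can also make leukotriene C4, measured 6.70, 6.08, 5.27 and 4.57 FPKM across WT libraries, against 1.72, 1.64, 1.38 and 3.83 across the knockouts (-1.13, adjusted p = 0.0128). Every knockout value was below every WT value, whereas 3 of 4 Ltc4s values were above every WT value. Mgst3, of the same family, was at 11.6 to 13.5 and 9.77 to 10.5 FPKM (-0.29, adjusted p = 0.0222). Ggt5, which turns leukotriene C4 into leukotriene D4, was at 1.35 to 2.42 and 0.199 to 1.30 FPKM (-0.78, adjusted p = 0.0334). It was the 1 of 3 tested leukotriene receptor and metabolism genes to pass. Its WT values met the filter by themselves, so it was tested through the group in which it was high. With no filter the limma adjusted p was 0.0645. In the same list Abcc1 (8.47 to 10.1 and 10.4 to 11.3 FPKM) and Dpep2 (0.349 to 0.672 and 0.953 to 1.92 FPKM) were higher in LRP1 KO. Abcc1 did not pass (adjusted p = 0.0763), Dpep2 was below the filter, and both are named after their values were seen.

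At the other end of the prostanoid pathway Hpgd, the dehydrogenase that inactivates prostaglandins, was higher, at 8.55, 5.05, 5.63 and 7.59 FPKM in WT and 17.1, 14.8, 16.1 and 12.8 FPKM in LRP1 KO (log2 fold change 1.09, limma adjusted p = 0.00382). The groups were well apart and Hpgd was the single one of 6 transport and breakdown genes to pass with all 8 libraries, against 2 without LRP1 KO 4, where Slco3a1 also passed as higher. Pla2g7, Mgst2 and Hpgd passed under all 14 alternatives tried, whereas the other 3 calls were lost under several, with estimates of 0.43 to 0.67 for Ephx2, -0.32 to -0.25 for Mgst3 and -1.49 to -0.63 for Ggt5 over all alternatives. Ephx2 did not pass without any 1 WT library or without LRP1 KO 1, 2 or 3 (adjusted p = 0.0623 to 0.104), and Ggt5 did not pass without WT 2, 3 or 4 or LRP1 KO 1, 2 or 3 (0.0620 to 0.0960). Mgst3 did not pass without WT 1 or 2 or LRP1 KO 1, 2 or 3 (0.0516 to 0.0689).

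None of the 5 receptor genes tested passed limma, nor did Ptgfrn, and 1 receptor, Ptgir, had an unadjusted p under 0.05. Without LRP1 KO 4 Ptgir (-0.57, adjusted p = 0.0371) and Ptger1 (0.19, adjusted p = 0.0348) did pass. Of the prostanoid receptors Ptger1, for prostaglandin E2, was at 11.6 to 11.9 FPKM in WT and 11.5 to 14.0 in LRP1 KO, and Tbxa2r, for thromboxane, was at 3.34 to 4.2 and 2.45 to 4.27 FPKM. Ptgir, for prostacyclin, was at 0.910 to 1.99 and 0.376 to 1.2 FPKM, and Ptger4 was at 0.722 to 1.23 and 1.14 to 1.46 FPKM. Ptgfrn, a regulator of the prostaglandin F receptor, was at 15.3 to 18.6 and 16.0 to 18.6 FPKM. Cysltr1, the one leukotriene receptor above 1 FPKM, was at 0.888 to 1.71 and 1.04 to 1.67 FPKM. Ptgdr, for prostaglandin D2, was listed at 0 in all 8 libraries and is named for that. Gpr44, the other prostaglandin D2 receptor, was below the filter, at 0.756 to 1.04 and 0.639 to 0.838 FPKM.

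**Figure D2:**
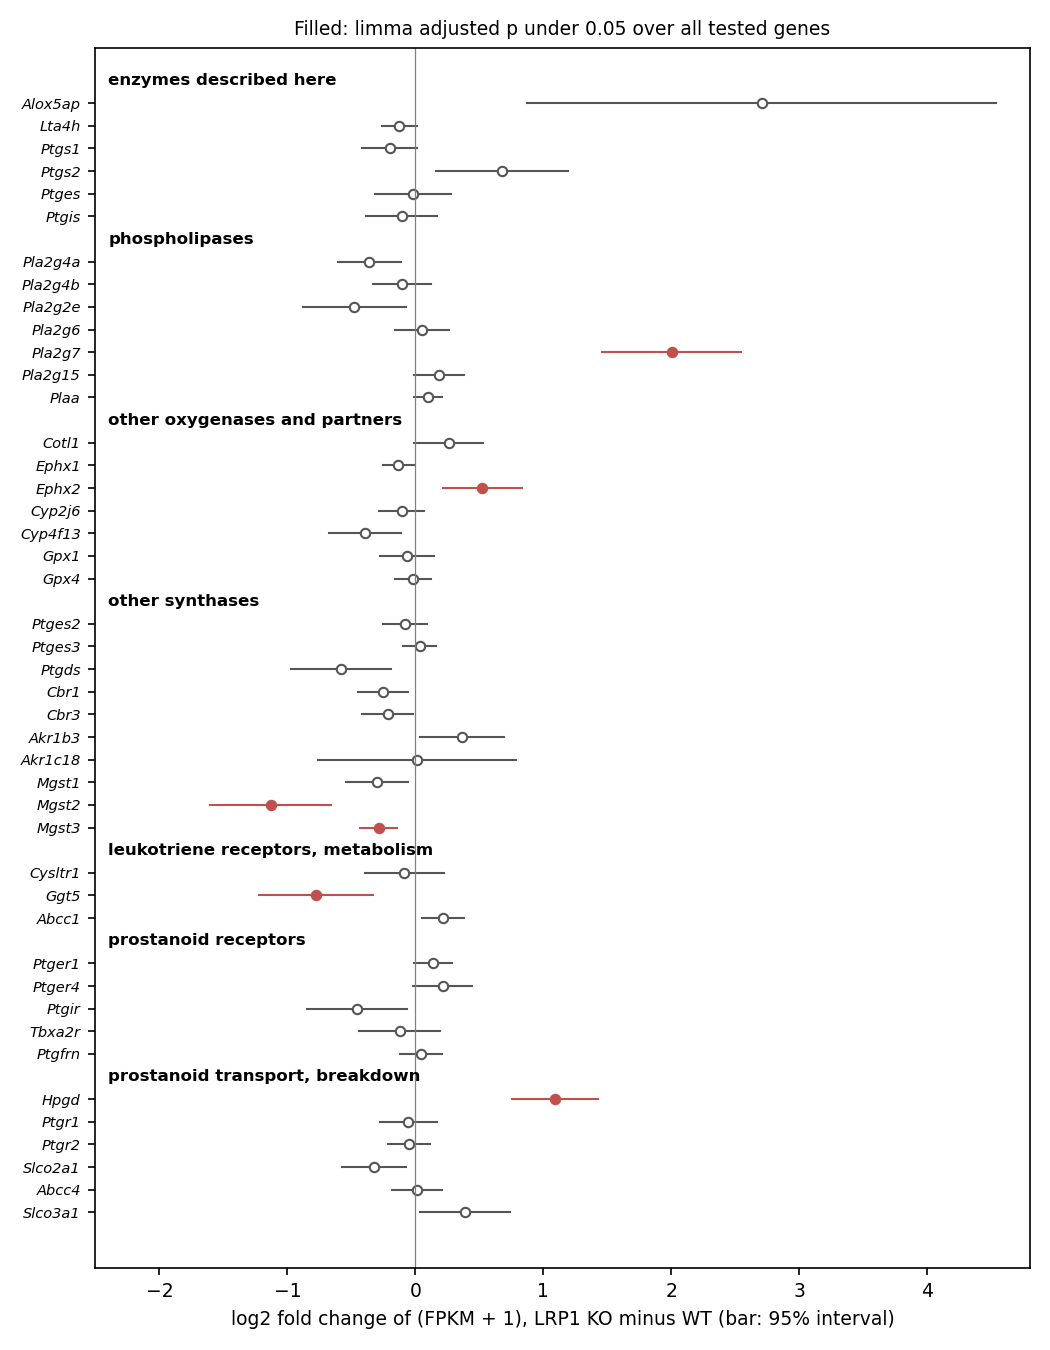
Log2 fold changes of FPKM + 1, LRP1 KO minus WT, with 95% intervals for the 6 tested enzymes and the 38 tested pathway genes by list, filled where the limma adjusted p over all tested genes was under 0.05. The 6 filled points are Pla2g7, Ephx2, Mgst2, Mgst3, Ggt5 and Hpgd, and Alox5ap has the widest interval.

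Leukocyte and macrophage markers had higher sums in every knockout library, including LRP1 KO 3, in which Ltc4s lay within its WT range. Leukocyte markers summed to 8.27 to 14.2 FPKM in WT and 50.2 to 99.5 in LRP1 KO, and 5 of the 6 tested genes that reached 1 FPKM in any WT library passed as higher. Macrophage markers summed to 56.3, 82.4, 97.0 and 78.3 FPKM in WT and to 361.9, 546.5, 225.2 and 486.6 FPKM in LRP1 KO, and 7 of 9 such genes passed as higher. Cd52 and Cd37 of the first list and Emr1 and Mrc1 of the second were tested only through the knockout libraries and are left out of these counts. Lyz2, lysozyme, made up 42.6% to 65.7% of that sum, with Ctss next to it in the knockout libraries, while Cx3cr1, Fcgr1 and Cd163 were at most 0.313 FPKM.

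Alox5ap, Alox5, Ltc4s, Hpgds and Tbxas1 were also set against 100 FPKM of the summed macrophage markers, a ratio formed after the values were seen. The groups overlapped for all 5, and this was not tested. The divisor itself differed between the groups, and Alox5, Ltc4s and Hpgds were under 1 FPKM in every library. Nothing is therefore read from the overlap. Tbxas1 was at 0.234 to 0.439 per 100 FPKM in WT and 0.229 to 0.350 in LRP1 KO, and Hpgds was at 0.0644 to 0.216 and 0.0961 to 0.206. Alox5 was at 0.0287 to 0.144 and 0.0220 to 0.175, and Ltc4s was at 0.131 to 0.444 and 0.107 to 0.242. Alox5ap lay between 0.805 and 0.936 in WT and at 0.872, 7.38, 0.721 and 6.28 in LRP1 KO libraries 1 to 4, so that libraries 1 and 3 were near the WT ratio and libraries 2 and 4 well above it. Leaving Lyz2 out of the sum, the Alox5ap ratios were 1.45 to 2.13 in WT and 2.54, 19.0, 1.69 and 16.2 in LRP1 KO. Tbxas1 was then at 0.492 to 0.764 in WT and 0.591 to 0.990 in LRP1 KO, and Hpgds at 0.136 to 0.376 and 0.270 to 0.483. Alox5 was at 0.0535 to 0.251 and 0.0570 to 0.509, and Ltc4s at 0.275 to 0.855 and 0.276 to 0.707. The groups again overlapped, with the highest ratio in LRP1 KO for Tbxas1, Hpgds and Alox5 and in WT for Ltc4s.

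The profiles nearest to Alox5ap, by the root mean square difference of centred log2(FPKM + 1) over the 8 libraries, were C1qa (0.79), C1qc (0.79) and C1qb (0.83), the genes of the complement component C1q that tissue macrophages make. C1qa measured 0.399, 1.66, 1.85 and 0.777 FPKM across WT libraries, against 2.47, 11.2, 1.08 and 12.1 across the knockouts, with libraries 2 and 4 high as for Alox5ap. C1qb and C1qc had the same 2 libraries highest with less spread, at 13.4 to 40.5 and 6.93 to 24.7 FPKM in LRP1 KO. The differences of 0.79 to 0.83 are large beside those of Ptgs2, whose nearest profiles were Tnfrsf23 (0.14), Tnfrsf22 (0.16) and Clic5 (0.16). Tnfrsf23, a decoy receptor for TRAIL, ranged from 16.8 to 29.0 FPKM across WT libraries and measured 46.7, 34.2, 41.0 and 29.7 FPKM across the knockouts, where LRP1 KO 1 was highest and LRP1 KO 2 and 4 were low among the knockout libraries, as for Ptgs2. Likeness over 8 libraries that share a normalization is a description, and it was computed for these 2 members because no other tested member had an SD of at least 0.5 on the log2 scale.

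**Figure D3:**
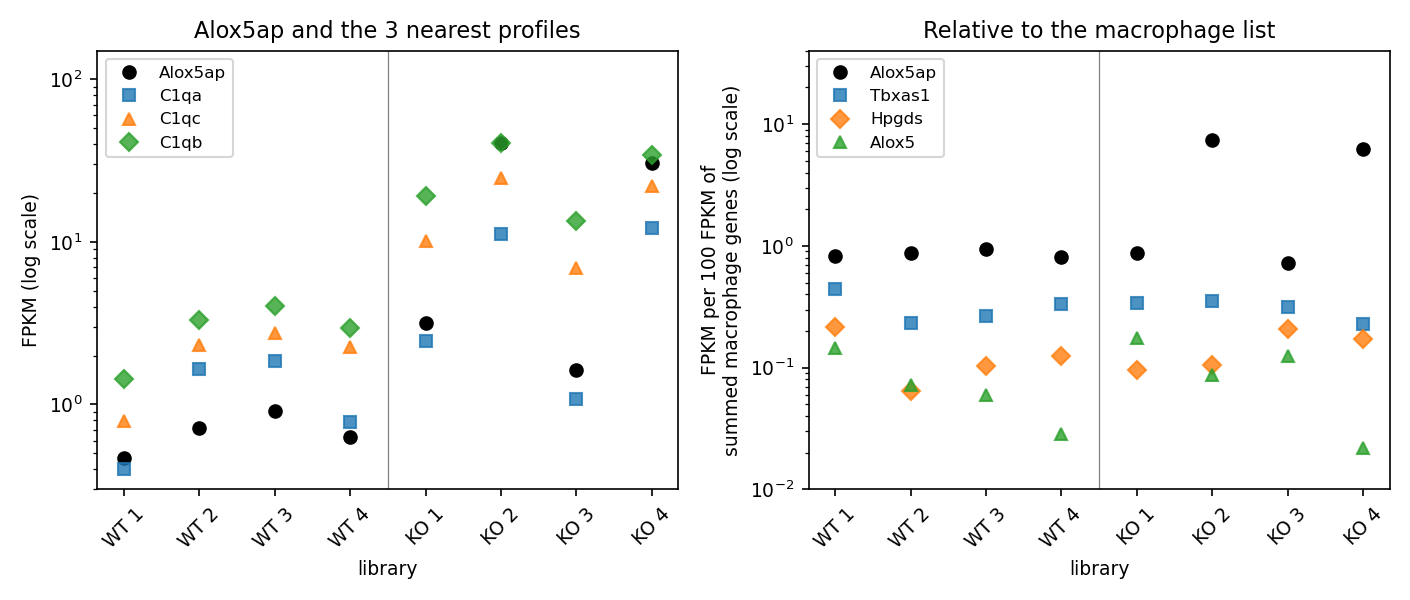
Left, FPKM on a log axis of Alox5ap and of C1qa, C1qc and C1qb in each library. Right, Alox5ap, Tbxas1, Hpgds and Alox5 per 100 FPKM of the summed macrophage markers, where Alox5ap stands at 7.38 and 6.28 in LRP1 KO 2 and 4 and under 1 in the other 6 libraries.

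Markers of the other blood cells known for these enzymes were low, and several that define them were listed at 0. Of the markers of mast cells, which are known for Ltc4s and Hpgds, Fcer1a and Tpsb2 were listed at 0 in every library and Cpa3 was at most 0.183 FPKM, while the list summed to 4.24 to 6.88 FPKM in WT and 5.95 to 11.5 in LRP1 KO, most of it from Hdc and Gata2 (1 of 2 tested higher, Gata2, and none without any 1 WT library or without LRP1 KO 1, 2 or 3). Of the platelet markers Ppbp and Tubb1 were listed at 0, Pf4 was at 0.623 to 0.725 in WT and 0.825 to 2.75 FPKM in LRP1 KO, Itga2b was at 0.710 to 1.22 and 0.779 to 1.21 FPKM, and the sums were 2.0 to 3.08 and 2.80 to 5.19 FPKM. Of the neutrophil markers S100a9, Ly6g and Retnlg were listed at 0, and the sums of 9.08 to 10.6 and 5.25 to 13.8 FPKM came mostly from Mmp8. S100a8, at 0.382 to 1.48 and 1.11 to 3.53 FPKM, was the 1 of 2 tested to pass as higher, and it did not pass without WT 2, 3 or 4 or without LRP1 KO 1, 2 or 4. Mmp8, the other gene tested, had a lower estimate in LRP1 KO and passed as lower without LRP1 KO 4. Dendritic cell markers summed to 3.71 to 4.25 and 4.09 to 5.73 FPKM, with Zbtb46 the most abundant. Zbtb46 was the 1 gene of that list tested and did not pass limma (0 at an unadjusted p under 0.05), while Itgax, below the filter, was at 0.0537 to 0.166 and 0.458 to 1.02 FPKM. With no filter 2 genes of the list, Itgax and Ccr7, passed as higher. Lymphocyte markers summed to at most 0.314 FPKM. Markers of organ-resident macrophages were mixed. The Kupffer list summed to 3.39 to 5.20 and 5.04 to 20.7 FPKM with Clec4f and Timd4 at most 0.0152, and Marco measured 7.84, 5.53, 0.636 and 11.8 FPKM across the knockouts against at most 0.666 in WT. Cd5l of that list passed as higher but was tested only through the knockout libraries. Slc40a1, the other gene tested, had a lower estimate, at 2.61 to 3.26 and 1.87 to 2.62 FPKM (-0.30, limma adjusted p = 0.0733). The alveolar list summed to 12.2 to 35.9 and 22.7 to 99.3 FPKM, nearly all from Chi3l3 in the knockout libraries, which passed as higher but not without WT 1, 2 or 4 or LRP1 KO 1 or 2. The other genes of the alveolar list above 1 FPKM in any library had lower estimates, Ear1 at 0.866 to 1.57 and 0.157 to 1.08 FPKM, Ear2 at 4.97 to 11.4 and 0.619 to 6.08 FPKM and Car4 at 0.509 to 1.61 and 0.176 to 0.478 FPKM, and neither Ear1 nor Ear2 passed, although both passed as lower without LRP1 KO 4.

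The endothelial label held in part. Pecam1 ranged from 6.80 to 8.76 FPKM across WT libraries and measured 36.3, 18.5, 26.2 and 6.72 FPKM across the knockouts, and Cdh5, whose promoter drives CreER, was at 8.87 to 11.2 and at 47.3, 21.5, 33.9 and 8.56 FPKM. The 18 endothelial markers summed to 190.3 to 203.3 FPKM in WT and to 678.6, 430.6, 501.6 and 199.1 FPKM in LRP1 KO, and 2 of 17 tested passed as higher. Without LRP1 KO 4 the count was 15 of 17, with 26.5% of all tested genes passing, and without any 1 of the other libraries it was 0, with 4.5% to 8.85% of all tested genes passing. Far above them stood fibroblast markers (2765 to 4056 and 2477 to 3695 FPKM, 2 of 11 lower, 6 without LRP1 KO 4 and 0 without any 1 of the others) and mesothelial markers (2398 to 2744 and 2048 to 2331 FPKM, 2 of 7 lower, 5 without LRP1 KO 4 and 1 without any 1 of the others), with Msln, mesothelin, alone at 1094 to 1272 and 911 to 1043 FPKM. Mural cell markers summed to 675.1 to 841.2 and 1047 to 1646 FPKM (5 of 9 higher), and lymphatic markers to 219.5 to 271.5 and 220.4 to 277.9 FPKM, mostly from Pdpn (0 of 4 passed limma, 1 at an unadjusted p under 0.05, and 2 passed as higher without LRP1 KO 4).

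Hepatocyte and lung epithelial markers were scarce. Hepatocyte markers summed to at most 1.63 FPKM and lung epithelial markers to at most 4.31 FPKM (1 of 1 lower), and the cardiomyocyte sums of 98.5 to 154.4 and 86.4 to 117.6 FPKM came almost wholly from Tnnt2 (0 of 2 passed limma, 2 at an unadjusted p under 0.05). Without WT 3 Tnnt2 passed as lower, and without LRP1 KO 4 Myl7, the other gene tested, passed as higher. Ptgis and Ptgs1 are also expressed by mesothelial cells, fibroblasts and smooth muscle, and their levels here were not assigned to any cell type. Among the knockout libraries Ptgs2 was highest in LRP1 KO 1 and 3, which also had the 2 highest endothelial sums. It was lowest in LRP1 KO 2 (7.61 FPKM, endothelial sum 430.6) and stood at 8.36 FPKM in LRP1 KO 4 (endothelial sum 199.1), and the part of the endothelial share in the Ptgs2 values was not tested.

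**Figure D4:**
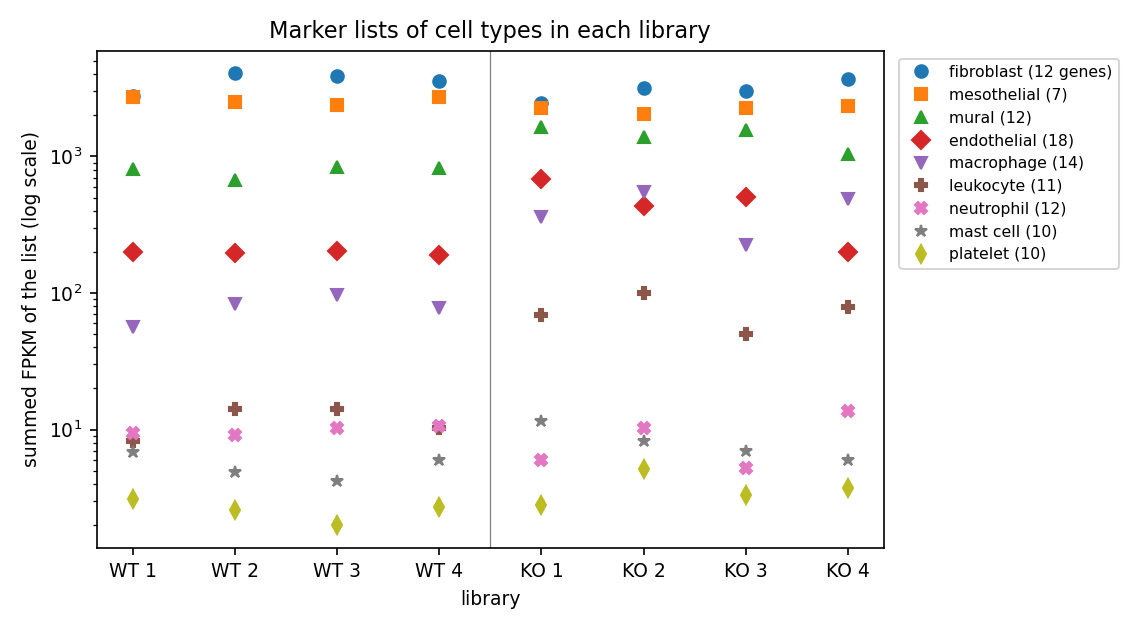
Summed FPKM on a log axis of 9 marker lists in each library, with the number of genes in each list in the legend. Macrophage and leukocyte sums are higher in all 4 LRP1 KO libraries than in WT, the endothelial sum is higher in LRP1 KO 1, 2 and 3 but 199.1 in LRP1 KO 4, and fibroblast and mesothelial sums exceed both.

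By position, the 10 members were spread over 6 chromosomes of GRCm38 and all are annotated as protein-coding genes. Ptgs1 (chr2:36230426-36252272, plus strand), Ptges (chr2:30889471-30929863, minus strand) and Ptgis (chr2:167191805-167240604, minus strand) lie on chromosome 2. Tbxas1 (chr6:38875404-39084585, plus strand), Hpgds (chr6:65117293-65144908, minus strand) and Alox5 (chr6:116410077-116461178, minus strand) lie on chromosome 6. Lta4h is at chr10:93453411-93484875 on the plus strand, Ptgs2 at chr1:150100031-150108227 on the plus strand and Ltc4s at chr11:50236461-50238616 on the minus strand. Of the 10 members 5 share 1.58% to 26.4% of their exon bases with another annotated gene, which without stated strand information leaves a part of their fragments uncertain.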

How the data were processed

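RNA sequencing of 8 libraries, 4 WT and 4 LRP1 KO, was analysed from the processed expression table, and each library was given its group and number by its title. The authors deposited FPKM values that had been quantile normalized across libraries, a unit inferred from the values. The submitters' processing notes name TopHat2, Cufflinks and the build mm10, whereas the study's methods describe STAR and featureCounts, so how the table was made is uncertain. As the values are not whole counts, the count test of the study's methods was not used and depth is unknown.

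Genes with an FPKM of at least 1 in at least 4 libraries (11389 of 22520) were tested on log2(FPKM + 1) with limma 3.58.1 (trend) in R 4.3.3, with the group as its only term and Benjamini-Hochberg adjusted p under 0.05 as the threshold. The script was tested on simulated data. Members below the filter were given an exact permutation p (two-sided, 70 choices, not adjusted). Pathway genes were named when they passed or, for receptors, at a mean of at least 1 FPKM in either group, markers when they were abundant or defined a list and were near 0, and the 3 nearest profiles for a member with an SD of at least 0.5. Positions came from GENCODE on GRCm38 (21740 of 22520 identifiers found) and promoter windows from RefSeq. The members and gene lists were chosen with earlier results of these data known.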

Additional observations from a re-analysis of the deposited data

How the results depend on the processing

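The fits were repeated under 14 alternatives, and 76 of 84 values of the 6 tested members kept their direction and their side of the threshold. The estimate of Ptges changed sign to 0.05 without WT 1 (adjusted p = 0.840) and to 0.10 without LRP1 KO 3 (0.595), and ran from -0.090 to 0.10 with 1 library left out. The number of members passing, 0 as reported, became 1 with a pseudocount of 0.1 (Alox5ap), 2 with no filter on low values (Hpgds and Tbxas1, where 6.45% of 18026 genes passed), 1 with the replicate block (Ptgs2, adjusted p = 0.0472), 1 with library weights (Ptgs1, -0.27, adjusted p = 0.0387) and 0 to 2 with 1 library left out. Log2 fold changes over all alternatives ran from 2.07 to 3.58 for Alox5ap, 0.50 to 0.81 for Ptgs2, -0.27 to -0.14 for Ptgs1, -0.15 to -0.09 for Lta4h and -0.18 to -0.01 for Ptgis. Pathway genes passing, 6 as reported, were 14 with library weights and 3 to 14 with 1 library left out. Genes passing, 1547 as reported, were 1163 of 18026 with no filter, 1013 with the replicate block, 3003 with library weights, 3021 without LRP1 KO 4 and 512 to 1008 without any 1 of the other libraries. Members below the filter with groups apart, 3 as reported, were 3 to 4 with 1 library left out, Ltc4s being added without WT 3 or LRP1 KO 3. Libraries with the same number deviated from their group means with correlations of 0.16, 0.14, 0.34 and -0.31, and not every library correlated best with its own number, so they were not taken as pairs. Among pathway genes the blocked fit ended the call of Mgst3 alone (adjusted p = 0.0505). Among marker lists it moved the macrophage count from 9 to 8 higher, the fibroblast count from 2 to 1 lower, the endothelial count from 2 to 3 higher, the mural count from 5 to 6 higher, the cardiomyocyte count from 0 to 1 higher and the alveolar count from 1 higher to 1 lower, Chi3l3 losing its call. The macrophage counts here are over all 11 tested genes, with Emr1 and Mrc1, which were tested only through the knockout libraries and left out above. With a pseudocount of 0.1 the estimate of Ggt5 was -1.49, and with no filter Ephx2 (adjusted p = 0.0717) and Ggt5 (0.0645) did not pass. The cause of these shifts was not tested. The unknown depth limits what can be seen for the 4 members under the filter. Dixon's test of 20 groups of 4 values found 0 libraries far from the rest.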
